A study of Mus musculus with 3 samples.

Results

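Nqo1 and 6 other antioxidant genes known as targets of the transcription factor Nrf2 were followed across the cell types of 2 kinds of mouse thymus culture. The 7 genes (Nqo1, Hmox1, Gclm, Gclc, Txnrd1, Srxn1 and Gstm1) were taken as a list of symbols from the 32285 genes of the matrix, and the list was chosen from measured values of these data, with the difference of Nqo1 between the cultures already known. The values below are therefore a description, and none of them is a test. The FTOC group (fetal thymic organ culture) came from intact fetal thymic lobes. The ORFTOC group (organoid reaggregate fetal thymic organ culture) came from thymic epithelial cells (TECs) that had first grown as organoids in a gel and were then reaggregated with epithelium-depleted fetal thymus cells and mouse embryonic fibroblasts, which support the aggregate. The organoid TECs came from thymi of a later embryonic day than the lobes, and per the methods the organoid medium contained N-acetylcysteine, a cysteine donor and antioxidant. All cells were wild type, and the labels give no treatment. Per the methods, the culture medium of both groups held the growth factor FGF7 and, at first, the kinase inhibitor thiazovivin, as the organoid medium also did. Both groups were sampled on culture day 13. In each group 2 cultures were mixed in 1 hashtag pool, so each pool was 1 sample and no replicate error exists. All intervals (95%) cover counting error only.

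Nrf2, encoded by Nfe2l2, is held in the cytoplasm and marked for degradation by Keap1 and Cul3. When electrophiles or oxidants modify Keap1, Nrf2 accumulates, pairs with small Maf proteins and binds antioxidant response elements, a step that Bach1 opposes. Its targets supply glutathione, reduced thioredoxin and enzymes that detoxify quinones, haem and electrophiles. Several of these genes also have other inputs, among them the aryl hydrocarbon receptor for Nqo1 and haem, through Bach1, for Hmox1. Gene expression by TECs is set by their lineage, cortical (cTEC) or medullary (mTEC), and mTECs that express Aire transcribe many genes of other tissues.

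After quality filters the FTOC pool held 4144 cells (29250988 UMIs, where a UMI, unique molecular identifier, stands for 1 captured transcript) and the ORFTOC pool held 4248 (42775371 UMIs). No cell barcode was in both pools. The epithelium counted 962 FTOC cells with a median of 12140 UMIs and 1230 ORFTOC cells with a median of 13346 UMIs, a smaller gap than that between the immune cells (2483 and 5323 UMIs). The label epithelial held by its markers: Epcam stood at 1173 CPM (UMIs of the gene over all UMIs of those cells, on the usual CPM scale) in FTOC and 1155 CPM in ORFTOC epithelium, against 45.6 and 24.4 CPM in immune cells. Of 9 epithelial clusters, made without the 7 genes and their pathway, 5 matched marker lists: cluster 1 (early mTEC-like, with Krt14 and Ccl21a among its leading genes), 2 (airway-like, Bpifa1), 4 (cTEC-like, Psmb11), 6 (Aire mTEC-like) and 9 (tuft-like, Avil). Clusters 3 (Cxcl14 and Lypd1), 5 (Aqp3 and Igfbp2), 7 (T cell genes such as Cd3d beside epithelial ones) and 8 (Foxi1) stayed unnamed. Immune cluster 15, led by Pth and Chga (73 FTOC and 66 ORFTOC cells), was counted with the immune cells although its genes are not of that kind. The sex-linked pattern differed with the pool. Of the epithelial cells, 898 in FTOC held Xist without Y-linked UMIs and 0 held the reverse, whereas in ORFTOC 432 held Xist alone and 521 held Y-linked UMIs alone.

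Nqo1 (ENSMUSG00000003849) lies on chr8:107388225-107403205 and Srxn1 (ENSMUSG00000032802) on chr2:152105524-152111376, in the GRCm38.p6 annotation of RefSeq, the build that the submitters' processing notes name as mm10. The other members are Hmox1 (ENSMUSG00000005413, chr8:75093618-75100593), Gclm (ENSMUSG00000028124, chr3:122245487-122267215), Gclc (ENSMUSG00000032350, chr9:77754535-77794489), Txnrd1 (ENSMUSG00000020250, chr10:82833951-82897724) and Gstm1 (ENSMUSG00000058135, chr3:108012250-108017973). The 250 bases before the start of Nqo1 and Srxn1 are shown because of their ratios between the pools in summed epithelial UMIs. These were the lowest and the highest among the members. The place of Srxn1 rested on 1 cell, without which its log2 ratio (0.39) was below that of Gstm1 (0.49). Capitals mark a match on either strand to TGACNNNGC or TGAGNNNGC, shortened forms of the antioxidant response element, which do not overlap here.
Nqo1, minus strand, chr8:107403206-107403455: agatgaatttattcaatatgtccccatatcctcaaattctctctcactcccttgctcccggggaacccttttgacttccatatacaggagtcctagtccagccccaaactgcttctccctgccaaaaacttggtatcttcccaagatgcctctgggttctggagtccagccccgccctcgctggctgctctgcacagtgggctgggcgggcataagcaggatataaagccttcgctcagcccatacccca
Srxn1, plus strand, chr2:152105274-152105523: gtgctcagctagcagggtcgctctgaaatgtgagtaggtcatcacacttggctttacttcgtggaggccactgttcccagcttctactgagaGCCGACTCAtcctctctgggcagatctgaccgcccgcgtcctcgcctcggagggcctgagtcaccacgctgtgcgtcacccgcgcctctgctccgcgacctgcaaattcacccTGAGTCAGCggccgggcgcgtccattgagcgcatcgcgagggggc
The Nqo1 window held no match, which says only that these letters are not within 250 bases of this start. The Srxn1 window held 2 matches to TGAGNNNGC, TGAGTCAGC as printed at bases -45 to -37 from the start and, on the opposite strand, GCCGACTCA (as printed) at bases -158 to -150. Of 32851 windows of the same length before gene starts, 10.2% held TGACNNNGC and 14.4% held TGAGNNNGC. In the windows of the other members in the table, Gclm and 1 of 3 starts of Txnrd1 held 1 match to TGACNNNGC each, and neither start of Gstm1 held a match. Windows for Hmox1 and Gclc were not used here.

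Nqo1, a quinone reductase of the cytosol, was an epithelial transcript in both cultures. Over both pools it stood at 61.6 CPM in epithelial cells (1835 UMIs) and at 1.73 CPM in all other cells (73 UMIs), a log2 ratio of 5.16 (4.82 to 5.52). The epithelium, 23.2% of FTOC cells and 29.0% of ORFTOC cells, held 97.5% and 92.9% of the Nqo1 UMIs. Among 7895 genes with at least 20 CPM in either group, 20.4% were at least 2-fold higher in epithelial cells, and of the 7 members Nqo1 and Gstm1 were. Immune cells had 1.395 CPM in FTOC and 0.959 CPM in ORFTOC, on 22 and 20 UMIs. Free RNA, measured in barcodes of at most 100 UMIs, held 19.6 CPM of Nqo1. It made up at most 9.32% and 6.33% of the UMIs of the other cells, which is enough for the immune levels as sums. Those sums include 10 FTOC and 5 ORFTOC UMIs of the Pth cluster, whose own level was far higher. The source of the immune UMIs was not tested. With free RNA subtracted the log2 ratio was 7.87, and with every cell holding a marker UMI of another compartment left out it was 5.78. The highest level outside the epithelium was that of the Pth cluster, with 16.4 CPM in FTOC on 10 UMIs and 12.6 CPM in ORFTOC on 5. Mesenchymal cells held 11 UMIs in FTOC (11.3 CPM) and 20 in ORFTOC (4.30 CPM).

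Within the epithelium Nqo1 differed with the cell type. In FTOC its order was cTEC-like cells (312 CPM, 267 to 362), cluster 5 (160.5 CPM, 146 to 176), cluster 3 (119 CPM, 106 to 133), early mTEC-like cells (99.2 CPM, 89.2 to 110.1), cluster 7 (77.3 CPM), Aire mTEC-like cells (13.9 CPM) and airway-like cells (4.26 CPM). The intervals of clusters 1 and 3 overlapped, as did those of cluster 7 with both and those of Aire mTEC-like and airway-like cells, while cTEC-like cells lay above all other clusters. In ORFTOC, cTEC-like cells were again highest (80.1 CPM, 71.8 to 89.2). Next were cluster 5 (38.3 CPM, 20.4 to 65.5) and Aire mTEC-like cells (26.2 CPM, 15.5 to 41.4). Early mTEC-like cells followed (23.6 CPM, 19.5 to 28.3), with an interval that overlapped those of cluster 5 and Aire mTEC-like cells. Cluster 3 (9.37 CPM), ahead of early mTEC-like cells in FTOC, stood below them and cluster 7 (12.6 CPM) in ORFTOC. Airway-like cells had 4.15 CPM there, on 17 UMIs in 337 cells, and cluster 8 had no Nqo1 UMI in 15 FTOC and 29 ORFTOC cells. The 33 cTEC-like cells of FTOC were 3.43% of its epithelium and held 13.1% of its epithelial Nqo1 UMIs, whereas the 260 of ORFTOC were 21.1% and held 63.7%.

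**Figure D1:**
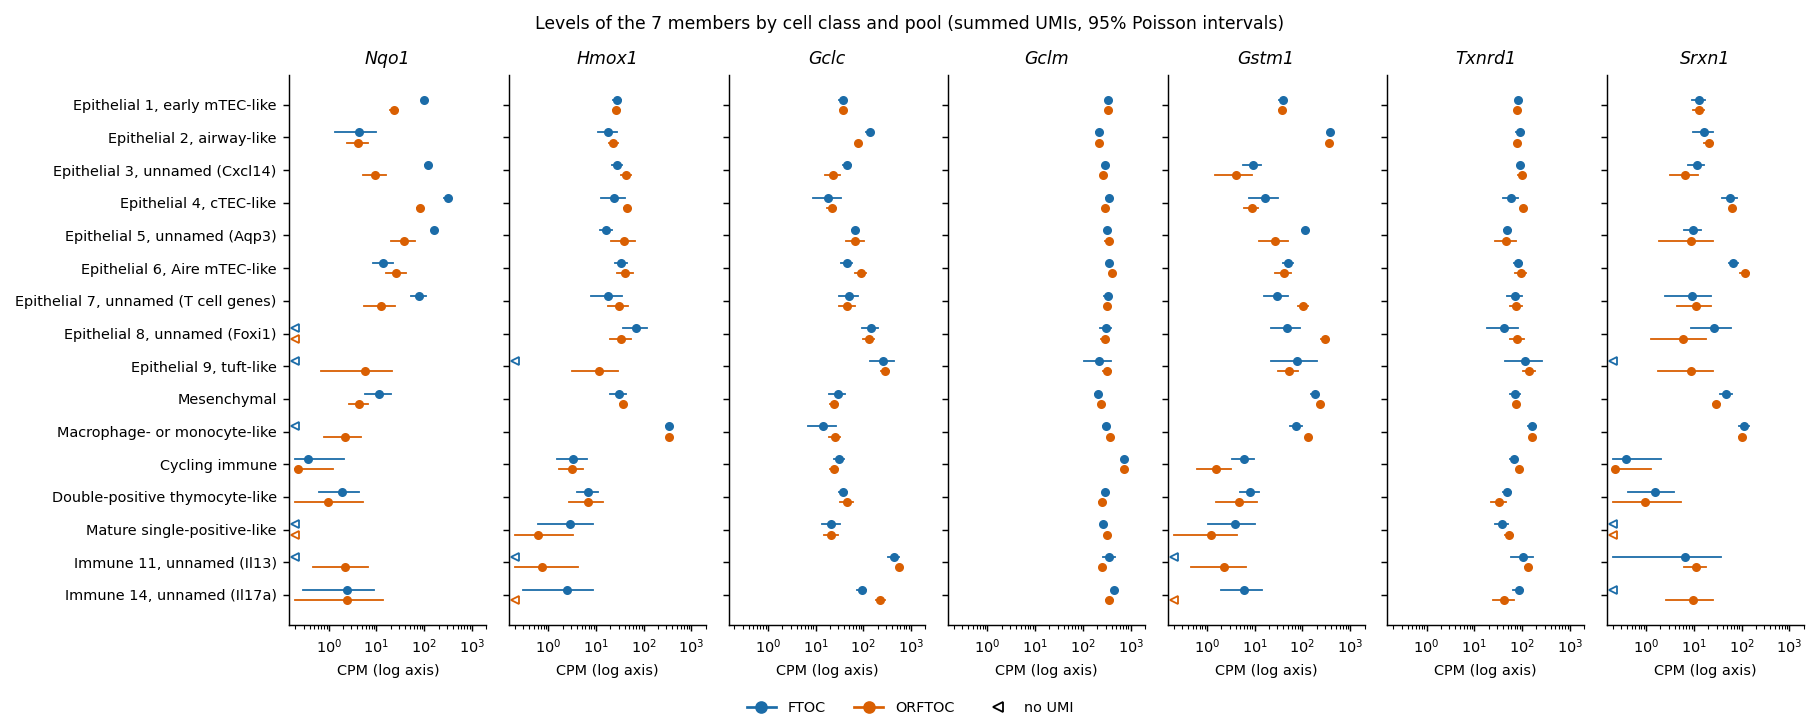
Level of each of the 7 genes (CPM, log axis) in 16 cell classes, FTOC in blue and ORFTOC in orange, with points for summed UMIs, lines for 95% Poisson intervals (drawn from 0.2 CPM at the lowest) and open triangles for no UMI. Nqo1 stands apart between the pools in several epithelial clusters, and Hmox1 is highest in macrophage-like cells at 339 and 338 CPM. Gclm has the narrowest span on the log axis, from 203 to 740.3 CPM among classes of at least 20 cells.

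Nqo1 was lower in ORFTOC than in FTOC epithelium. It stood at 105 CPM in FTOC (1311 UMIs) and at 30.3 CPM in ORFTOC (524 UMIs), 3.46-fold lower (3.12 to 3.83), a log2 ratio of -1.79 (-1.94 to -1.64). Of the 7051 genes that reached 20 CPM in either pool, 1.57% were at least 2-fold lower in ORFTOC, and 33 genes, Nqo1 included, had a ratio as low as or lower than its own. Of the 7 members only Nqo1 passed 2-fold, and the list had been chosen with this contrast known. Over all genes tested the median log2 ratio was 0.01, so the scale as a whole was level.

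The difference was present inside 5 of the 7 clusters with at least 20 cells in each pool. In cTEC-like cells Nqo1 went from 312 CPM in FTOC (172 UMIs in 33 cells) to 80.1 CPM in ORFTOC (334 UMIs in 260 cells), 3.89-fold lower (3.22 to 4.69). In early mTEC-like cells it stood at 99.2 and 23.6 CPM, 4.20-fold lower (3.40 to 5.22). Cluster 3 had the widest gap, with 119 CPM in FTOC on 287 UMIs and 9.37 CPM in ORFTOC on 14 UMIs (12.7-fold, 7.44 to 23.5). Cluster 5 (160.5 and 38.3 CPM, 13 UMIs in ORFTOC) and cluster 7 (77.3 and 12.6 CPM, 8 UMIs) were lower by 4.19-fold and 6.14-fold. At least 2-fold lower in ORFTOC were 0.695% of genes tested in early mTEC-like cells, 1.85% in cluster 3, 3.43% in cTEC-like cells and 5.78% in cluster 5. In Aire mTEC-like cells Nqo1 was 13.9 CPM in FTOC (19 UMIs) and 26.2 CPM in ORFTOC (18 UMIs), a log2 ratio of 0.91 whose interval (-0.10 to 1.92) held 0, and 1 cell held 10 of the UMIs in FTOC and 1 cell 11 in ORFTOC. Airway-like cells did not differ within counting error, with a log2 ratio of -0.04 (-1.54 to 1.76) on 5 and 17 UMIs. With the 7 clusters of at least 20 cells in each pool weighted alike, Nqo1 was 115 CPM in FTOC and 26.9 CPM in ORFTOC, 4.28-fold lower. The larger share of cTEC-like cells in ORFTOC thus went with a smaller, not a larger, gap in the unweighted sum. Whether clusters differ in this ratio was not tested, since each pool was 1 sample.

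**Figure D2:**
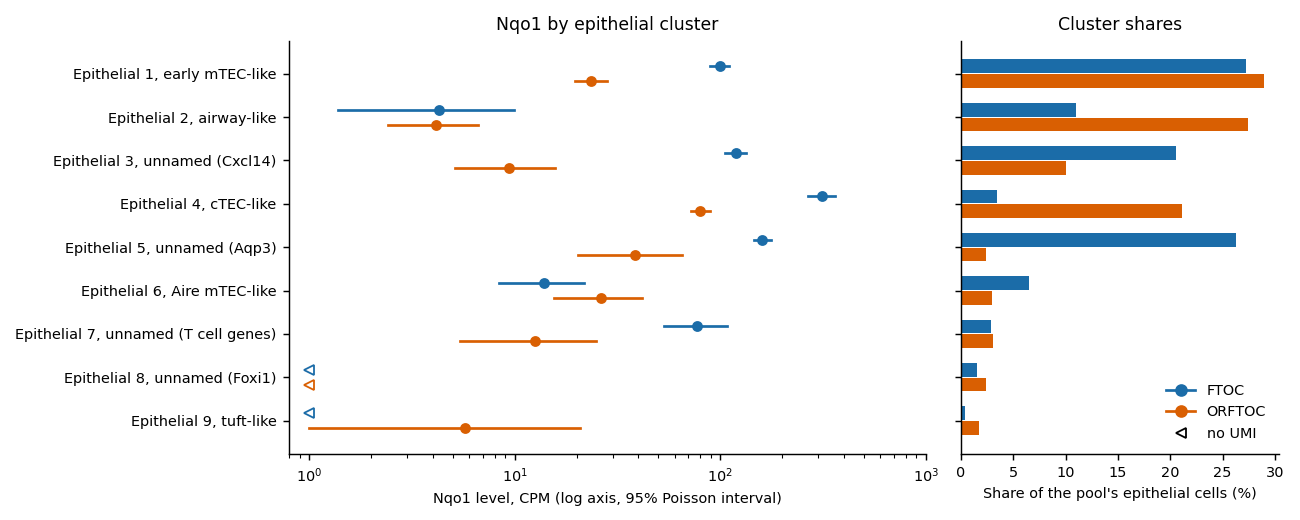
Left, Nqo1 (CPM, log axis, drawn from 1 CPM at the lowest) in the 9 epithelial clusters of FTOC (blue) and ORFTOC (orange) with 95% Poisson intervals and open triangles for no UMI. Right, the share of each pool's epithelial cells in each cluster (%). The 2 pools are apart in clusters 1, 3, 4, 5 and 7 and overlap in clusters 2, 6 and 9.

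More epithelial cells held Nqo1 in FTOC, and those cells held more of it. At least 1 Nqo1 UMI was found in 42.6% of 962 FTOC cells and 20.7% of 1230 ORFTOC cells. After thinning each cell to 5000 UMIs, which left out 58 and 56 shallower cells, these shares were 28.4% (25.5 to 31.5, Clopper-Pearson) and 9.63% (7.998 to 11.5). In cycling immune cells, which should lack the transcript, 1 of 318 FTOC cells (0.315%) and 1 of 346 ORFTOC cells (0.289%) held a UMI, at median depths of 7230.5 and 11518 UMIs. Among cTEC-like cells 75.8% in FTOC and 54.6% in ORFTOC held a UMI, or 59.4% (40.6 to 76.3) and 27.2% (21.9 to 33.1) after thinning. At least 5 UMIs were found in 15 of 33 cTEC-like cells in FTOC and 16 of 260 in ORFTOC. No single cell carried the sums, since the highest FTOC cell held 16 of 1311 UMIs and the highest ORFTOC cell 11 of 524. The cells richest in Nqo1 that together held 50% of its UMIs numbered 80 of 962 in FTOC and 57 of 1230 in ORFTOC.

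The level in ORFTOC was the same in cells with Xist alone and in cells with Y-linked UMIs alone, within counting error. Nqo1 stood at 28.9 CPM (24.8 to 33.5) in ORFTOC epithelial cells with Xist alone and at 30.8 CPM (27.0 to 35.0) in those with Y-linked UMIs alone, against 105 CPM (99.2 to 111) in FTOC cells with Xist alone. In cTEC-like cells the corresponding values were 82.7, 79.7 and 312.5 CPM. The remaining ORFTOC epithelial cells were not level with each other. Those with neither kind of UMI (192 cells) stood at 43.0 CPM (34.2 to 53.3) and those with both (85 cells) at 18.9 CPM (12.9 to 26.7). FTOC cells with neither (58 cells) stood at 111 CPM. Transcripts of other cell types were also counted in the epithelium. The 6 lymphoid markers summed to 72.9 CPM in FTOC and 70.0 CPM in ORFTOC epithelium, and 4 of 5 red cell genes were at 0 in both. The 7 macrophage markers summed to 33.9 and 79.8 CPM, a difference carried by Lyz2 (22.2 and 66.9 CPM), with C1qa at 2.56 and 3.24 CPM. The 6 mesenchymal markers summed to 29.8 and 56.9 CPM, led by Dcn (16.6 and 40.4 CPM, and 6.13 and 78.4 CPM in early mTEC-like cells). The 9 genes of dissociation stress (Fos, Jun, Egr1 and others) summed to 5997 and 6561 CPM. The part of these transcripts in the Nqo1 difference was not tested. Macrophage-like cells held 0 Nqo1 UMIs in FTOC and 6 (2.22 CPM) in ORFTOC.

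Hmox1, which opens the haem ring to biliverdin, iron and carbon monoxide, had its highest level in macrophage-like cells and a low one in the epithelium. Macrophage-like cells had 339 CPM in FTOC (297 to 386, 46 cells) and 338 CPM in ORFTOC (316 to 361, 141 cells), so their level was equal within counting error. These cells were 1.11% of the FTOC and 3.32% of the ORFTOC cells and held 36.2% and 53.8% of the Hmox1 UMIs, and the epithelium held 48.9% and 33.2%. Epithelial Hmox1 stood at 25.2 CPM in FTOC and 32.6 CPM in ORFTOC, a log2 ratio of 0.37 (0.17 to 0.58), opposite in sign to that of Nqo1. The free RNA held 32.4 CPM but made up at most 5.30% of the UMIs of FTOC and 5.08% of ORFTOC epithelium, and with it subtracted the log2 ratio was 0.40. Cluster by cluster, the interval lay above 0 in clusters 3 (28.2 and 43.5 CPM), 4 (23.6 and 45.3 CPM) and 5 (16.5 and 38.3 CPM) and held 0 in the other 4. Those 3 clusters were also among the ones in which Nqo1 was lower in ORFTOC. Double-positive thymocyte-like cells had 6.81 and 6.70 CPM and cycling immune cells 3.34 and 3.14 CPM.

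Glutathione is made in a first, rate-limiting step by glutamate-cysteine ligase, whose catalytic subunit is Gclc and whose modifier is Gclm. Gclm was found in every class. Its level was 315 CPM in FTOC and 294 CPM in ORFTOC epithelium, a log2 ratio of -0.10 (-0.16 to -0.04), and 434 and 456.5 CPM in immune cells. Among classes of at least 20 cells it was highest in cycling immune cells, with 726 and 740.3 CPM, and lowest in mesenchymal FTOC cells, with 203 CPM. Within epithelial clusters it lay between 215 CPM (airway-like, FTOC) and 410.4 CPM (Aire mTEC-like, ORFTOC).

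Gclc varied more between cell types than Gclm, and the 2 subunits did not run in parallel. It was highest in an unnamed immune cluster, number 11, led by Il13, Fos and Hs3st1, with 435 CPM in FTOC (66 UMIs in 19 cells) and 553 CPM in ORFTOC (746 UMIs in 235 cells). Tuft-like cells followed in ORFTOC with 285 CPM (231 to 347, 21 cells). Immune cluster 14, led by Il17a, had 93.3 CPM in FTOC and 228 CPM in ORFTOC. Epithelial Gclc was 57.4 CPM in FTOC and 52.6 CPM in ORFTOC, a log2 ratio of -0.125 whose interval (-0.27 to 0.02) held 0. Under this sum the clusters went different ways. Gclc was lower in ORFTOC in airway-like cells (136 and 77.0 CPM) and in cluster 3 (46.0 and 22.7 CPM), and higher in Aire mTEC-like cells (44.65 and 88.8 CPM, 61 UMIs in each pool). Across 42 combinations of cell class and pool the Pearson r of Gclc with Gclm was -0.24, on a log2 scale with 10 CPM added. These points share 1 lane, differ in depth and are given with no test.

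Gstm1, a mu-class transferase that joins glutathione to electrophiles, belongs to a family of close copies, so its counts are uncertain where reads could be shared among them. It was an airway-like transcript, with 387 CPM in FTOC (352 to 424) and 365 CPM in ORFTOC (346 to 384). Mesenchymal cells had 180 and 239 CPM, and the Foxi1 cluster, number 8, had 47.3 CPM on 9 UMIs in 15 FTOC cells and 296 CPM on 147 UMIs in 29 ORFTOC cells. Cycling immune cells had 5.95 and 1.57 CPM. Summed over the epithelium Gstm1 was higher in ORFTOC, with 82.05 and 115.5 CPM and a log2 ratio of 0.49 (0.38 to 0.60). This sign was not that of the clusters. Airway-like cells were 11.02% of FTOC and 27.4% of ORFTOC epithelium and held 44.3% and 75.0% of its Gstm1 UMIs. Within them the log2 ratio was -0.08 (-0.24 to 0.07), in early mTEC-like cells it was -0.05 (-0.37 to 0.28), and in cluster 5 it was -2.08 (-3.22 to -1.14), with 112 CPM in FTOC and 26.5 CPM (9 UMIs) in ORFTOC. In FTOC 1 cell of cluster 5 alone held 90 of the 306 Gstm1 UMIs of that cluster. Of the 7 clusters with at least 20 cells in each pool, cluster 7 had an interval above 0, with 29.6 and 103.9 CPM. With clusters weighted alike the levels were 113.8 and 97.6 CPM, a log2 ratio of -0.22.

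**Figure D3:**
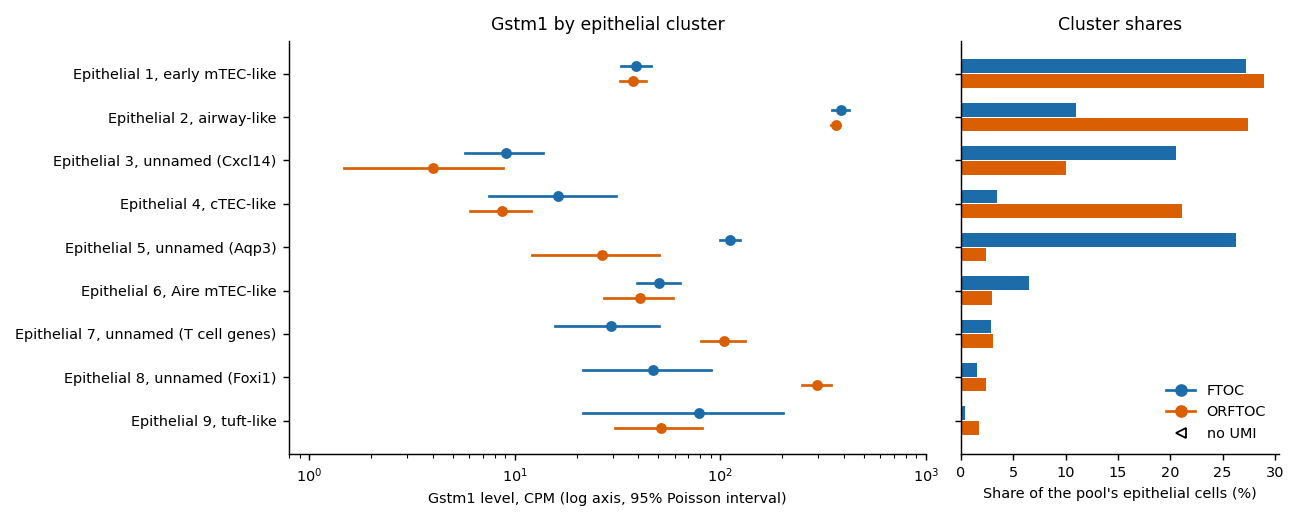
Left, Gstm1 (CPM, log axis, drawn from 1 CPM at the lowest) in the 9 epithelial clusters of FTOC (blue) and ORFTOC (orange), with 95% Poisson intervals. Right, the share of each pool's epithelial cells in each cluster (%). Airway-like cells have 387 and 365 CPM in the 2 pools but 11.02% and 27.4% of the cells.

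Txnrd1 and Srxn1 serve the thioredoxin system, Txnrd1 by reducing thioredoxin with NADPH and Srxn1 by returning overoxidised peroxiredoxins to use. Txnrd1 was present in every class, between 32.5 CPM in ORFTOC double-positive thymocyte-like cells and 163 CPM in FTOC macrophage-like cells, among classes with at least 20 cells. Epithelial Txnrd1 was 76.45 CPM in FTOC and 89.0 CPM in ORFTOC, a log2 ratio of 0.22 (0.10 to 0.34). With clusters weighted alike it stood at 78.0 and 82.6 CPM, a log2 ratio of 0.08. Among the 7 clusters the interval lay above 0 in cTEC-like cells alone, with 58.0 and 106.8 CPM (0.88, 0.36 to 1.45). In the same cells Nqo1 was lower in ORFTOC and Hmox1 higher.

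Srxn1 was highest in 3 classes. Aire mTEC-like cells had 67.3 CPM in FTOC and 116 CPM in ORFTOC, macrophage-like cells 112 and 102 CPM, and cTEC-like cells 56.2 and 64.5 CPM, while cycling immune cells held 1 UMI in each pool. Epithelial Srxn1 stood at 20.1 CPM in FTOC and 30.3 CPM in ORFTOC, a log2 ratio of 0.59 (0.37 to 0.82), and with clusters weighted alike at 21.3 and 24.9 CPM, a log2 ratio of 0.22. Aire mTEC-like cells were the only cluster of the 7 whose interval lay above 0 (0.79, 0.34 to 1.24). In cTEC-like cells the log2 ratio was 0.20 (-0.34 to 0.79), and its sign rested on 1 cell, without which ORFTOC stood at 47.8 CPM against 56.2 CPM in FTOC.

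A single ORFTOC cell carried much of this transcript. It was a cTEC-like cell with 29516 UMIs in all, of which 71 were Srxn1, 13.6% of the epithelial Srxn1 UMIs of the pool and 2405 CPM against 47.8 CPM in the other 259 cTEC-like cells of ORFTOC. The same cell had the most Hmox1 of any ORFTOC epithelial cell, with 13 UMIs (440.4 CPM against 42.5 CPM). It also held 89 UMIs of Sqstm1, an autophagy receptor that binds Keap1, 12 of Nfe2l2 and 10 of Bach1, and no other cTEC-like cell of ORFTOC held as many of any of these 3. The cell held no Nqo1 UMI, against 80.7 CPM in the others, but only 142 of the 260 cTEC-like cells of ORFTOC held any. Its Txnrd1 was level (3 UMIs, 102 against 107 CPM). Without this cell the Srxn1 log2 ratio between the pools was 0.39. The cell was singled out after its values had been seen.

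**Figure D4:**
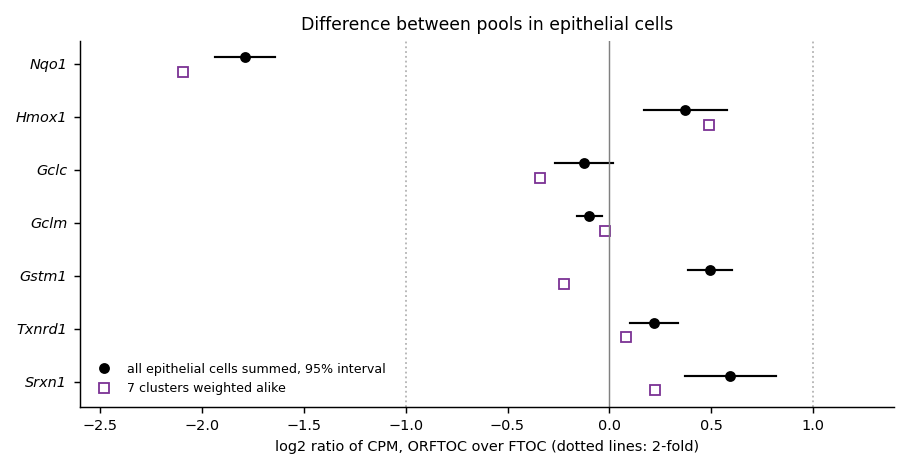
Log2 ratio of CPM in ORFTOC over FTOC epithelium for the 7 genes. Filled points with lines are sums over all epithelial cells with 95% intervals, open squares are means over 7 clusters weighted alike, and dotted lines mark 2-fold. Nqo1 lies at -1.79 and -2.10, and the other 6 lie within 2-fold by both measures, with Gstm1 changing side.

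None of the other 6 members came near the size of the Nqo1 difference. At least 2-fold higher in ORFTOC epithelium were 3.11% of genes and 0 of the 7 members. Hmox1, Txnrd1, Srxn1 and Gstm1 had summed ratios above 0 with intervals that left 0 out, Gclm had a ratio below 0 by 0.10, and the interval of Gclc held 0. Among all 7051 genes, 11.4% had a log2 ratio as far from 0 as that of Srxn1, 14.9% as that of Gstm1 and 20.9% as that of Hmox1, against 1.26% for Nqo1. With Xist-only cells in both pools the order was the same at its ends, with Nqo1 at -1.86 and Srxn1 at 0.97. Over all epithelial cells, Srxn1 without its 1 highest cell was at 0.39, below Gstm1 at 0.49. The part of that cell in the Xist-only value was not tested.

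No regulator of the pathway differed by 2-fold between the pools. Nfe2l2 stood at 115 CPM in FTOC and 132 CPM in ORFTOC epithelium (log2 ratio 0.20, 0.10 to 0.29), Keap1 at 83.6 and 87.2 CPM (0.06, -0.05 to 0.18) and Bach1 at 53.4 and 58.1 CPM (0.12, -0.02 to 0.26). In cTEC-like cells Nfe2l2 was 114 and 127 CPM and in cluster 3 134.5 and 127 CPM. Of the 10 regulators listed, 7 had at least 20 CPM and none reached 2-fold, against 1.57% of all genes lower and 3.11% higher. The highest of them was Sqstm1, with 245 and 422 CPM (0.785, 0.72 to 0.85), itself known as a target of Nrf2, and with clusters weighted alike its log2 ratio was 0.36. The second highest was Nfe2l1, a relative of Nfe2l2, with 90.2 and 115 CPM (0.35), and the lowest was Cul3 with 56.1 and 48.9 CPM (-0.20).

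The wider pathway and related routes were measured through 95 genes in 9 lists, of which 65 reached 20 CPM in the higher pool. The lists included those of the aryl hydrocarbon receptor and of superoxide and peroxide enzymes not tied to Nrf2. The totals are therefore not of Nrf2 targets alone. Of these, 1 was at least 2-fold lower in ORFTOC epithelium, Aldh1a3, and 5 were at least 2-fold higher, Gpx2, Aldh3a1, Ahr, Cyp1b1 and Gpx3, beside 1.57% lower and 3.11% higher among all genes. Ahr and Cyp1b1 came from the aryl hydrocarbon receptor list and Gpx3 from the list not tied to Nrf2. The median log2 ratio of the genes tested in all 9 lists was 0.18, beside 0.01 over all 7051 genes. Those 2 lists had the highest medians (0.67 and 0.40).

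Among genes that supply and use glutathione, the median log2 ratio of 6 tested was 0.12. The antiporter subunit Slc7a11, which brings in cystine, stood at 34.0 CPM in FTOC and 56.7 CPM in ORFTOC (0.74, 0.57 to 0.91), and it was found in early mTEC-like (60.5 and 73.8 CPM), airway-like (57.9 and 97.3 CPM) and Aire mTEC-like cells (89.3 and 112 CPM), with 3.62 and 20.9 CPM in cTEC-like cells. Gpx2, an epithelial glutathione peroxidase, had the largest ratio of the list, with 25.4 and 104 CPM (2.04, 1.86 to 2.21). It was higher in ORFTOC in early mTEC-like (51.3 and 121 CPM), airway-like (49.4 and 224 CPM) and cTEC-like cells (1.81 and 21.8 CPM), and its log2 ratio with clusters weighted alike was 1.79. Gsr, which recycles oxidised glutathione, was level (64.0 and 65.9 CPM), as was the synthetase Gss (20.6 and 18.01 CPM, -0.20, -0.44 to 0.05). Of 6 genes tested in the list, Gpx2 alone passed 2-fold.

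The 8 glutathione transferases tested, besides Gstm1, all stayed within 2-fold (median 0.20). The highest ratios were those of Gsta3 (17.2 and 24.6 CPM, 0.52) and Gstm2 (37.5 and 49.0 CPM, 0.385), and both had their highest epithelial level in airway-like cells and a log2 ratio with clusters weighted alike below 0 (-0.56 and -0.21), as for Gstm1. Gsto1 was equal in the sum, at 62.0 and 62.1 CPM, but in airway-like cells it stood at 404.5 CPM in FTOC and 194 CPM in ORFTOC, and its weighted log2 ratio was -0.73. The lowest of the list was Gstm5 (50.5 and 40.9 CPM, -0.31).

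Of 13 thioredoxin and peroxiredoxin genes none passed 2-fold (median -0.15). Prdx4, the peroxiredoxin of the endoplasmic reticulum, was the lowest, with 85.5 CPM in FTOC and 46.3 CPM in ORFTOC (-0.88, -1.02 to -0.75), and its CPM was lower in ORFTOC in clusters 1 to 5 (126 and 64.9 CPM in cluster 5). Sesn3 (110 and 83.3 CPM) was next, and the highest were Txn1 (775 and 984.5 CPM, 0.345) and Prdx5 (248 and 282.5 CPM, 0.19). In the list of NADPH supply, which feeds Nqo1 and Txnrd1, 0 of 6 genes passed 2-fold (median 0.33). G6pdx, the entry to the pentose phosphate pathway, was highest, with 24.1 and 44.2 CPM (0.88, 0.68 to 1.08), followed by Pgd (45.6 and 67.0 CPM, 0.56), and the CPM of both was higher in ORFTOC in each of clusters 1 to 6, by as little as 37.3 and 38.1 CPM for Pgd in cluster 3. Idh1 (135 and 124 CPM) and Tkt (197 and 194 CPM) were the lowest.

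The haem and iron list (median 0.12) had 6 genes tested, between -0.16 for Blvrb (41.3 and 36.9 CPM) and 0.26 for Blvra (21.6 and 25.8 CPM), which act on biliverdin downstream of Hmox1. Fth1, a ferritin chain, stood at 1689 and 1993 CPM (0.24) and Fech at 32.7 and 32.5 CPM. Among 9 detoxification genes tested (median 0.26), Aldh3a1 was higher in ORFTOC (12.6 and 32.0 CPM, 1.35, 1.09 to 1.61) and so was the carbonyl reductase Cbr3 (28.6 and 53.2 CPM, 0.90). Aldh1a3, which makes retinoic acid, was lower (84.45 and 36.1 CPM, -1.23, -1.37 to -1.08). Its lower level stood in clusters 3 (44.7 and 3.34 CPM), 5 (199 and 67.8 CPM) and 1 (77.8 and 41.8 CPM), all of them clusters in which Nqo1 was lower. Akr1b3 was the second lowest (33.6 and 38.2 CPM, 0.18).

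Genes of the aryl hydrocarbon receptor, another route to Nqo1, had a median log2 ratio of 0.67 over 4 tested. Ahr itself was 7.76 CPM in FTOC and 20.6 CPM in ORFTOC epithelium (1.41, 1.08 to 1.75), mostly in airway-like cells (44.3 and 64.6 CPM), where Nqo1 had 4.26 and 4.15 CPM. Cyp1b1, a target of the receptor, was 4.64 and 20.85 CPM (2.17, 1.76 to 2.59), with 7.25 CPM in FTOC and 27.1 CPM in ORFTOC cTEC-like cells. Tiparp, another target, was lower by less than 2-fold (28.1 and 19.6 CPM, -0.52), and Arnt was level (24.7 and 23.6 CPM). Cyp1a1 held 2 and 11 UMIs. Of 6 superoxide and peroxide enzymes outside the Nrf2 lists (median 0.40), Gpx3 was higher in ORFTOC (26.2 and 70.2 CPM, 1.42), with 4.74 and 66.8 CPM in early mTEC-like cells and, in reverse, 181 and 42.2 CPM in Aire mTEC-like cells. Sod2 followed (113 and 175 CPM, 0.64), and Cat (38.9 and 31.4 CPM, -0.31) and Sod1 (78.2 and 96.6 CPM, 0.305) were the lowest.

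**Figure D5:**
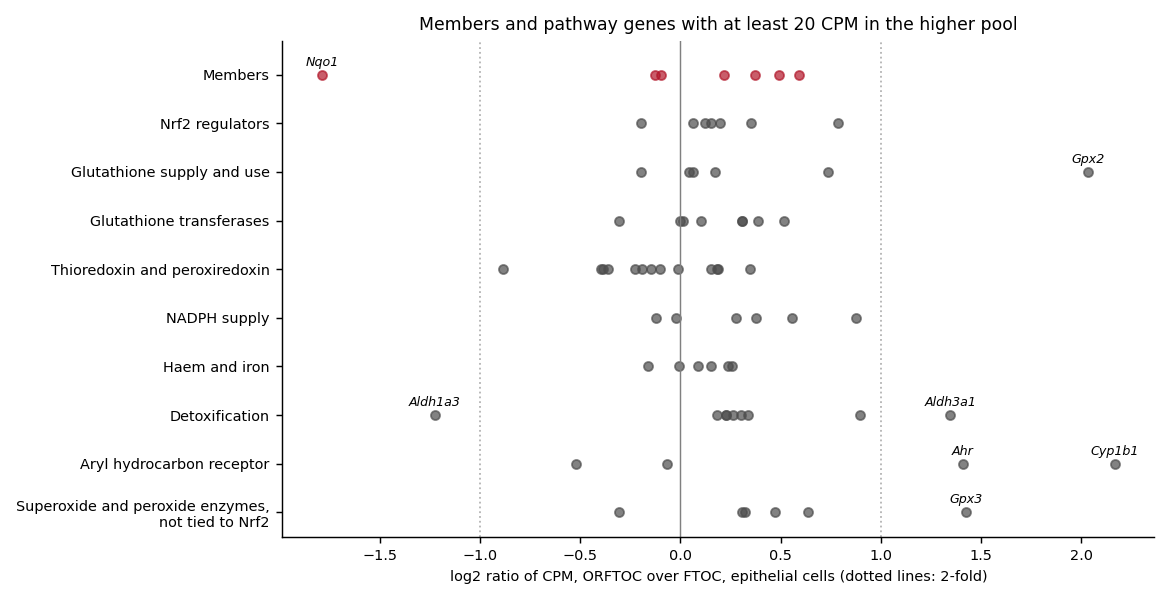
Log2 ratio of CPM in ORFTOC over FTOC epithelium, each point 1 gene, with dotted lines at 2-fold. Red points are the 7 members. Grey points are those genes of 9 pathway and related lists that reached 20 CPM in either pool. Nqo1 at -1.79 and Aldh1a3 at -1.23 lie past 2-fold on the lower side, and Gpx2, Cyp1b1, Gpx3, Ahr and Aldh3a1 on the higher side.

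Genes whose profile over cell classes was most like that of each member were ranked by Pearson r of log2(CPM + 10) over the same 42 combinations of class and pool, among 8441 genes with at least 50 CPM in any of them. For Nqo1 they were Plekhb1 (r = 0.94), Cth (0.94), Kcnn3 (0.92), D630023F18Rik (0.91) and Bex2 (0.89). All 5 were epithelial, with at most 2.75 CPM in the other cells of either pool, and their sums differed between the pools to different degrees. The ranking used both cell class and pool. An epithelial profile and a lower level in ORFTOC were thus part of the choice of these genes and are no separate result. Bex2 was lower in ORFTOC epithelium, with 55.7 CPM in FTOC and 10.8 CPM in ORFTOC (log2 ratio -2.36, -2.602 to -2.13), as was D630023F18Rik with 24.7 and 8.86 CPM (-1.48). Plekhb1 (51.9 and 29.3 CPM) and Cth, which makes cysteine from cystathionine (28.0 and 18.4 CPM), were lower by less than 2-fold in the sum. Within clusters 1, 3, 4 and 5 the gaps of Plekhb1 (60.0 and 12.7 CPM in cluster 3, 156 and 78.7 CPM in cTEC-like cells) and Cth (35.6 and 3.35 CPM, 149 and 61.2 CPM) were wider. Kcnn3, a potassium channel, had 86.8 and 91.0 CPM in the sum (0.07, -0.04 to 0.18), but its CPM was lower in ORFTOC in each of these 4 clusters (119 and 66.2 CPM in early mTEC-like, 306 and 248 CPM in cTEC-like cells), beside the larger share of cTEC-like cells in ORFTOC.

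The other members had other company. Genes near to Hmox1 (Sirpa, Akr1a1, Wwp1 and Cebpa, r from 0.85 to 0.87) included the macrophage receptor Sirpa, and those near to Gclm (Ppia, Pa2g4, Alyref and Tacc3, r from 0.89 to 0.95) included Tacc3, a protein of the mitotic spindle. Those nearest to Gstm1 (Nectin2, Gstm2, Plxnb2, Adam15 and Gstt1, r from 0.89 to 0.90) held 2 further transferases. Those nearest to Srxn1 were Hebp1, Ttyh2, Cltc, 5031439G07Rik and Vcam1 (r from 0.82 to 0.88). Gclc and Txnrd1 had no close match, with a highest r of 0.76 for Il17rb and 0.69 for Lyn. Sod2, the mitochondrial superoxide dismutase, was among the 5 of Txnrd1 (0.67). Between members the highest r was that of Hmox1 and Srxn1 (0.75), whereas Nqo1 had an r between -0.13 and 0.34 with each of the other 6.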

How the data were processed

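Cells of 1 droplet lane (10x 5' libraries with hashtag antibodies) were analysed from the deposited matrix of raw UMI counts (705161 barcodes, 32285 genes). Per the submitters' processing notes the authors used Cell Ranger 6.1.2, Seurat 4.2.0 and build mm10, and the matrix header names an earlier Cell Ranger. The members, lists and alternatives were chosen with earlier results of these data known. Cells with at least 600 genes and 0.4 to 10% mitochondrial UMIs (10245) were assigned to pools with HTODemux (quantile 0.99). Of 8983 single cells, 591 were removed as likely doublets by the hashtag doublets among 50 neighbours, leaving 8392. Clustering used Seurat 5.3.0 and sctransform 0.4.2 in R 4.3.3 (18 principal components, resolution 0.4, or 1 for immune cells), with 102 member and pathway genes left out. A cluster took a name, always as a likeness, from listed markers with a mean log2 fold of at least 2, a limit set after the leading genes had been seen.

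UMIs were summed per class and pool and given as CPM with exact Poisson intervals. Ratios have exact conditional binomial intervals, with a count under 3 set to 3. Background shares cover genes with at least 20 CPM in the higher group, and a call means 2-fold. No test was made, since each pool was 1 sample. Named genes were the 7 members, the 2 highest and 2 lowest ratios per list, the regulators Nfe2l2, Keap1 and Bach1, and the 5 genes most like each member, of which some are not reported here. Python 3.11.15, numpy 2.4.6, scipy 1.17.1, pandas 2.3.3 and matplotlib 3.10.9 were used, and the summing and interval steps were tested on simulated data. Alternatives covered hashtag assignment, gene minimum, doublets, normalisation, components, resolution, the genes left out, marker UMIs, cell weights and free RNA.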

Additional observations from a re-analysis of the deposited data

How the results depend on the processing

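The Nqo1 log2 ratio between the pools in epithelial cells lay between -1.94 and -1.66 under 12 alternatives, all within its counting interval, and Nqo1 remained the 1 member at least 2-fold lower in all 13 alternatives for that count. With clusters weighted alike, the ratio moved from -2.10 to -1.85 (hashtag by ratio of UMIs, -1.848, and doublets kept, -1.854), -1.66 (log-normalised counts) and -1.86 (30 principal components), and 9 other alternatives stayed within its interval. Nqo1 in epithelial over other cells moved from a log2 ratio of 5.16 to 4.601 (hashtag by ratio of UMIs) and 4.70 (doublets kept). It moved to 5.78 with cells holding marker UMIs of another compartment left out, and to 7.87 with free RNA subtracted. The causes of the shifts in both ratios were not tested. No member changed the sign of its summed ratio under these alternatives. Gstm1 ranged from 0.13 (doublets kept) to 0.70, and Srxn1 from 0.39 (without the 1 highest cell) to 0.97. Leaving out cluster 7, the cells without the Xist-only pattern or that cell was chosen after seeing the data. No paired analysis was possible because each group was 1 pool. Counting error is the only error that could be given, and a difference between cultures cannot be told apart from a difference between the pools.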
